A study of Rattus norvegicus with 16 samples.

Results

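Injured rat cortex 6 h after a percussion injury was compared with cortex of sham-operated rats. The comparison uses 6 of the 16 arrays of the series, the 3 arrays of injured cortex at 6 h and the 3 sham arrays of 3, 6 and 12 h. They were chosen by labelled treatment and time, and no measured value entered the choice. All animals were male Wistar rats of 8 weeks. Every rat, shams included, had an opening of 4.8 mm made in the skull over the right parietal cortex and an adapter fixed to it 48 h beforehand, so the shams are operated and not intact animals. Injured rats then received a moderate fluid percussion, a pressure pulse of 3.3 ± 0.3 atm through saline onto the dura, and shams a sham percussion after being anaesthetised again. The brains were flushed with saline, the cortex of the contusion area was cut out, and polyadenylated RNA was hybridised to Affymetrix rat arrays. Each sham stands for a different time, and 1 of them shares the 6 h of the injured arrays. The 48 h sham was left out, since the study's design text sets it apart from the earlier shams.

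A contusion tears small vessels and kills cells, and the molecules they release are sensed by microglia, astrocytes and endothelium through toll-like and interleukin-1 receptors. These receptors act through NF-kB, a transcription factor held back by inhibitor proteins that it also induces, and secondary cytokines act through STAT factors. The induced chemokines and adhesion molecules bring neutrophils and then monocytes from the blood into the cortex, while the blood-brain barrier, the sealed endothelium of brain vessels, loosens.

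Values are the deposited RMA intensities (background-corrected, normalized and summarised probe signals), taken as log2, with the median of each probe set over all 16 arrays already subtracted. Differences between arrays can be read from them, but not levels or detection, so whether the markers of cortex are present at all could not be checked. Each value below is a log2 difference from the mean of the 3 shams, and ± is the standard error (SE) of the difference between 3 injured and 3 sham arrays. The spread behind the SE and the p-values was estimated within the 6 groups of all 16 arrays. Scatter between injured arrays at 3, 12 and 48 h thus entered it, and a gene even at 6 h can have a wide SE. The labels do not say whether arrays come from separate animals, so p-values measure a spread between arrays that may be technical. In bulk tissue, fewer cells of a type and less RNA per cell cannot be told apart. Over the 14218 genes, 282 were called higher and 97 lower at 6 h (limma, adjusted p under 0.05), which is 1.98% and 0.682% of the genes, or 2.67% either way. Without adjustment, 2029 of the 14218 genes had a limma p under 0.05 in either direction. Unadjusted counts of lists below are to be read against that share. Of the called genes, 138 higher and 22 lower differed by at least 2-fold, and 60 higher and 2 lower by at least 4-fold. The median called rise was 1.98-fold and the median called fall 1.52-fold, and the median of all genes was -0.02. All 379 called genes had injured and sham arrays that did not overlap, as did 10.8% of all genes in the higher and 12.8% in the lower direction. When each array was left out in turn the total lay between 177 (without injured replicate 2) and 274 (without injured replicate 3), with 225 when injured replicate 1 was the one omitted, and 242, 202 and 229 when it was the sham of 3, 6 or 12 h. All 379 kept their sign in these 6 fits, 156 were called in every one of them (129 higher, 27 lower) and 53 in none. The number of these fits that called a gene is given below where it was under 6. Genes are named by a rule (the 20 largest rises and falls, up to 5 called members a list in each direction, and the 6 largest differences between times each way). Genes given as not called, unless their list had no called member, and those so described were chosen after their values were seen.

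**Figure D1:**
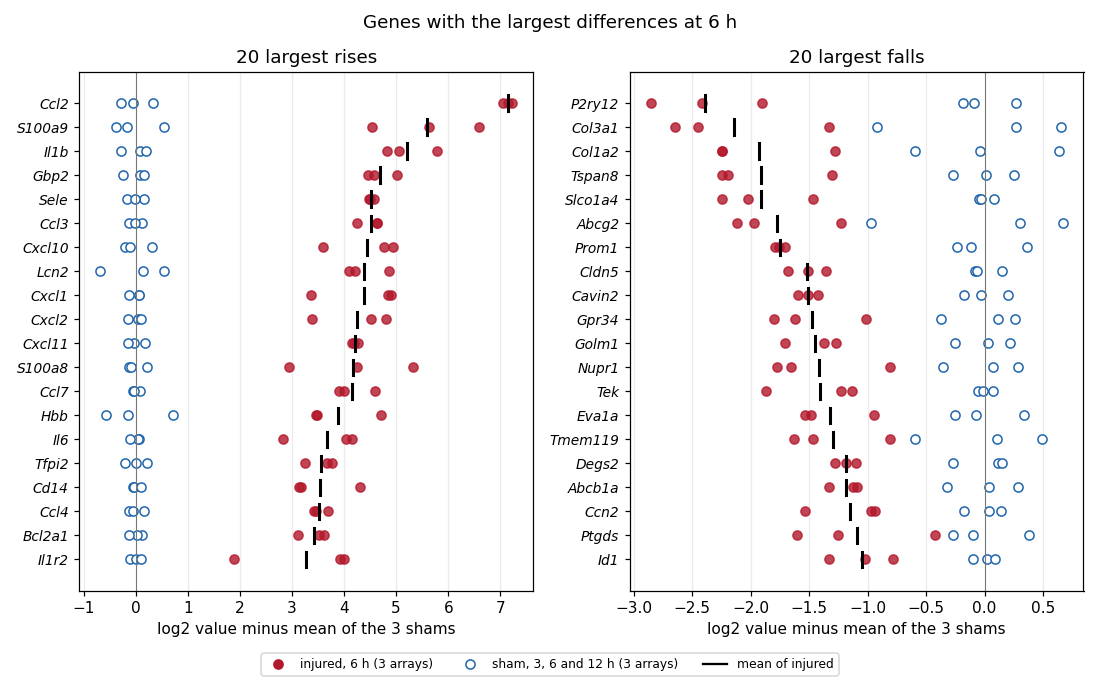
Log2 value of each array minus the mean of the 3 shams (x axis) for the 20 genes with the largest rises (left) and falls (right). Filled points are the 3 injured arrays, open points the 3 shams and bars the injured mean. Ccl2 at 7.14 stands apart from the next gene, S100a9 at 5.58, and the largest fall, P2ry12 at -2.39, is smaller than any of the 20 rises.

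The gene with the largest rise codes for a chemokine, a protein that draws leukocytes out of the blood. Ccl2, the main attractant of monocytes, stood at 7.15, 7.23 and 7.06 in the injured arrays and at 0.34, -0.05 and -0.28 in the 3, 6 and 12 h shams. The 3 injured arrays lay close together and far from every sham, and the difference for Ccl2 was 141-fold (log2 7.14 ± 0.76, adjusted p = 0.000163). Of 16 measured CC chemokines 6 rose and 0 fell, with a list median of 0.39. The others were Ccl3 (4.51 ± 0.31), Ccl7 (4.16 ± 0.51), Ccl4 (3.52 ± 0.27), Ccl6 (2.97 ± 0.60) and Ccl9 (2.51 ± 0.41), ligands of receptors on monocytes, neutrophils and other leukocytes. Ccl9 was chosen after its value was seen. Ccl6 ranged from 2.05 in injured replicate 1 to 3.87 in injured replicate 2, and 2 of the 6 fits that leave out 1 array called it (adjusted p up to 0.0959).

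Among the 14 measured CXC and CX3C chemokines 6 rose and 0 fell, with a list median of 0.53. Cxcl1 and Cxcl2, which attract neutrophils through Cxcr2, rose by 4.37 ± 0.58 and 4.24 ± 0.45. In both, injured replicate 3 was the lowest injured array (3.37 and 3.39, against 4.52 to 4.91 in the others) and the shams lay between -0.15 and 0.10. Cxcl10 (4.43 ± 0.64), Cxcl11 (4.21 ± 0.48) and Cxcl9 (0.54 ± 0.10) are interferon-induced ligands of Cxcr3 on T cells, and Cxcl9, chosen after its value was seen, lost the call when injured replicate 2 or the sham of 6 h was omitted (adjusted p up to 0.0597). Cxcl16, a chemokine that is also made as a membrane protein, rose by 2.64 ± 0.23. Cxcl12, which meningeal and vessel cells make constantly, stood at -0.94 ± 0.23 and was just outside the threshold (adjusted p = 0.0502). Its 3 probe sets ran from -1.97 to -0.40, and 1 of them was called. Of 15 chemokine receptors Ccr1, a receptor for Ccl3 and Ccl7, was the 1 called (2.33 ± 0.51), and the fit without injured replicate 1 was the 1 of 6 that called it (adjusted p up to 0.139). Cxcr2 stood at 0.73 ± 0.29 (adjusted p = 0.262).

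The interleukin-1 family had 4 of 12 members higher, in each of the 6 fits, and 0 lower (median 0.62). The agonist Il1b stood at 5.05, 5.78 and 4.82 in injured and 0.08, -0.28 and 0.21 in sham arrays, a 37.1-fold difference (log2 5.21 ± 0.39, adjusted p = 1.59e-05). The other agonist, Il1a, rose by 2.34 ± 0.30, and its injured arrays ran from 1.70 in replicate 3 to 3.06 in replicate 1. Il1r2, a decoy receptor that binds interleukin-1 without signalling, stood at 1.88, 3.99 and 3.92 (3.26 ± 0.50), so replicate 1 was well below the others. The interleukin-18 binding protein gene Il18bp rose by 0.81 ± 0.14. The receptor antagonist Il1rn was at 0.51 ± 0.23 and the alarm cytokine Il33 at -0.18 ± 0.18, neither of them called.

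The interleukin-6 and STAT3 list had 4 of 17 members higher (median 0.18). Il6 stood at 4.04, 4.15 and 2.82 in the injured arrays and between -0.11 and 0.07 in shams (3.67 ± 0.29, adjusted p = 1.85e-05). Stat3, the factor that carries its signal, rose by 1.53 ± 0.19, and Socs3, the STAT3-induced brake on the receptor, by 1.10 ± 0.20. Bcl3, an NF-kB cofactor, rose by 0.70 ± 0.14, with single probe sets from 0.16 to 1.48, and was lost when injured replicate 2 or the sham of 6 or 12 h was omitted (adjusted p up to 0.0888). Outside the list, Sbno2, a regulator induced by interleukin-10 and STAT3, rose by 1.71 ± 0.23. The signalling subunits Il4r, of the interleukin-4 receptor, and Il2rg, the common gamma chain, rose by 1.08 ± 0.17 and 1.34 ± 0.29, the latter in 1 of the 6 fits (adjusted p up to 0.135). These 3 genes were chosen after their values were seen.

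In the TNF list 6 of 20 members rose and 0 fell (median 0.28). They were the death and survival receptors Tnfrsf1a (1.29 ± 0.22), Tnfrsf9 (1.23 ± 0.21), Cd40 (0.78 ± 0.15) and Fas (0.42 ± 0.08), the TWEAK receptor Tnfrsf12a (1.66 ± 0.39) and the inhibitor Tnfaip3. Tnfrsf12a was called in 0 of the 6 fits (adjusted p up to 0.14) and Cd40 in 2 (up to 0.0681). The 3 probe sets of Fas ran from 0.01 to 0.98, and 1 of them was called. The count of 6 was 4 without injured replicate 2, injured replicate 3, the 3 h sham or the 6 h sham. Tnf itself stood at 0.48, 0.45 and 0.26 in the injured arrays, 0.40 ± 0.15 in all, and was not called (adjusted p = 0.215).

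NF-kB subunits and inhibitors were the list with the highest share of called genes, 12 of 14 higher and 0 lower, with a median of 0.85 that was 0.80, 0.92 and 0.76 in the 3 injured arrays. An inhibitor stood at the top of it. Tnfaip3, a ubiquitin editor that shuts NF-kB signalling off, stood at 3.20, 3.15 and 2.44 in injured and -0.07, -0.32 and 0.40 in sham arrays (7.60-fold, log2 2.93 ± 0.23, adjusted p = 1.85e-05). Birc3, a ubiquitin ligase below the TNF receptor, rose by 2.22 ± 0.24. The inhibitor Nfkbia rose by 1.55 ± 0.33 and was called in 2 of the 6 fits (adjusted p up to 0.104). Nfkbiz, a nuclear member of the inhibitor family, rose by 1.15 ± 0.23 in 3 of the 6 fits (adjusted p up to 0.0683), and its 2 probe sets gave -0.13 and 2.43. Of the subunits, the precursors Nfkb1 and Nfkb2 rose by 1.01 ± 0.15 and 0.99 ± 0.13 in every fit, whereas Relb (0.67 ± 0.15) and Rela (0.53 ± 0.12) were called in 2 and 1 of the 6 (adjusted p up to 0.135 and 0.171). The count of 12 was 7, 5 and 11 when injured replicate 1, 2 or 3 was omitted, and 9, 6 and 7 when it was the sham of 3, 6 or 12 h. The subunit genes were named after their values were seen.

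Promoters of 5 NF-kB-linked genes that rose show where the consensus lies. RefSeq promoter sequences (build GRCr8, 250 bases before to 50 after the start of the gene) matched 11734 of the 14218 genes. Below are the 100 bases just before the start, 5′ to 3′ along the gene, with matches to the NF-kB consensus, 10 bases long and searched on both strands, in capitals.
Cxcl1, chr14:17479322-17479421, minus strand: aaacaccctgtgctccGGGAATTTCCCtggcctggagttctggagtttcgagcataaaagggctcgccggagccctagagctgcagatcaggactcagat
Cxcl2, chr14:17467256-17467355, minus strand: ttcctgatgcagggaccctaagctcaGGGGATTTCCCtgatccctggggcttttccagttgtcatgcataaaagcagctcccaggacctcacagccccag
Il6, chr4:5894576-5894675, minus strand: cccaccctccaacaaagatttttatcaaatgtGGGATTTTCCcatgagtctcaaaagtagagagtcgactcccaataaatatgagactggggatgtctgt
Tnfaip3, chr1:15543980-15544079, minus strand: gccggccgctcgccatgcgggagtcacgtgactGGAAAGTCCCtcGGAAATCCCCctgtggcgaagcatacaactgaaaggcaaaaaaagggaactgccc
Irf1, chr10:38417835-38417934, plus strand: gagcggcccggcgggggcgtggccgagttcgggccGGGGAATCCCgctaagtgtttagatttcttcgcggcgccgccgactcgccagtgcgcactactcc

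Only genes with a match before the start were shown, so its presence in each of the 5 is not a result. Only the 100 bases before the start are printed, so the position of the match within them is not a result either. In Cxcl1 and Cxcl2 it is a pair of matches shifted by 1 base, and Tnfaip3 holds a pair close together. A gene was counted once however many matches it had. Over the whole 300 bases the consensus occurred in 1142 of the 11734 genes (9.73%), in 43 of 230 called higher (18.70%), in 13 of the 47 with a promoter that rose at least 4-fold (27.66%) and in 8 of 72 called lower (11.11%). Of the 10 called NF-kB list genes with a promoter, 7 held it. A match is a stretch of letters and does not show that the factor was bound.

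Immediate early genes, transcription factors made within minutes of a stimulus, had 9 of 24 members higher and 0 lower, with a median of 0.49. Atf3, a stress-induced factor, rose by 2.52 ± 0.47, the AP-1 subunit Fosl1 by 2.17 ± 0.34 and Myc by 1.82 ± 0.28. Myc was even between injured arrays, at 1.79, 1.83 and 1.83, while its shams spread from -0.45 to 0.35. Atf3 lost the call when injured replicate 2 or the sham of 12 h was omitted (adjusted p up to 0.0543). Maff (1.41 ± 0.25), Ier3 (1.56 ± 0.30), Ier2 (1.05 ± 0.16), Junb (0.93 ± 0.21) and Fos (0.93 ± 0.17) followed, of which Ier3 was called in 2 fits and Junb in 1 (adjusted p up to 0.0677 and 0.141). The 2 probe sets of Fos gave 0.02 and 1.83. The 3 h sham was the highest sham for Fos, Junb and Atf3, at 0.43, 0.47 and 0.39. The count of 9 was 5 without injured replicate 2 and 6 without injured replicate 1 or the 6 h sham. Zfp36, which destroys cytokine mRNAs, rose by 2.64 ± 0.29, Cebpd and Cebpb, factors of the acute phase, by 2.15 ± 0.24 and 1.32 ± 0.25, and the histone demethylase gene Kdm6b by 1.50 ± 0.28, all chosen after their values were seen. The 3 probe sets of Cebpd ran from 0.17 to 3.22, Cebpb lost the call when injured replicate 2 or the sham of 3 h was omitted (adjusted p up to 0.0565), and Kdm6b was lost without the 6 h sham (adjusted p = 0.0507). Spry1, an inhibitor of MAP kinase signalling, was the 1 called of 13 such feedback genes (1.43 ± 0.24).

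Sensors of bacteria and of damaged cells had 3 of 15 members higher and 0 lower (median 0.37). Cd14, the co-receptor for lipopolysaccharide, stood at 3.17, 3.14 and 4.30 in injured and between -0.06 and 0.10 in sham arrays (3.54 ± 0.61, adjusted p = 0.00619). Tlr2, a receptor for bacterial lipoproteins, rose by 2.03 ± 0.27, and Myd88, the adaptor of these receptors, by 1.54 ± 0.30, called in 2 of the 6 fits (adjusted p up to 0.0554). Lbp, which hands lipopolysaccharide to Cd14, was low in all 3 injured arrays (-2.33, -2.19 and -2.28). Its 3 h sham was also low, at -1.45, against 0.78 and 0.66 in the others, and the Lbp difference of -2.26 ± 0.62 was not called (adjusted p = 0.0755). It was called when the 3 h sham was omitted (-2.99, adjusted p = 0.0163), with quantile normalization (-3.79, 0.0122), in a fit of these 2 groups alone (0.037) and with all 4 shams (-2.69, 0.0312), and for Lbp the adjusted p over all alternatives ran from 0.0122 to 0.261.

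Acute phase and antimicrobial genes had 5 of 14 members higher and 0 lower (median 0.64). S100a9 and S100a8, which together form the neutrophil protein calprotectin, rose by 5.58 ± 0.73 and 4.17 ± 0.53. S100a9 stood at 4.53, 6.59 and 5.62 in injured and -0.17, -0.38 and 0.54 in sham arrays, and S100a8 at 2.95, 5.32 and 4.26. Lcn2, which withholds iron from bacteria, rose by 4.38 ± 0.45, Slpi, an inhibitor of neutrophil elastase, by 2.83 ± 0.62, and the protease inhibitor gene Serpina3n by 2.72 ± 0.67. Slpi was called in 1 and Serpina3n in 0 of the 6 fits (adjusted p up to 0.134 and 0.166). The count of 5 was 3 without injured replicate 2, injured replicate 3 or any of the 3 shams.

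Neutrophil markers had 4 of 13 members higher in each of the 6 fits, and these were S100a9, S100a8, Lcn2 and Il1r2 (list median 0.69). Cytokine-treated astrocytes also make Lcn2, and Il1r2 is not confined to neutrophils. The median of the list was 0.45, 0.84 and 0.66 in the 3 injured arrays and 0.01, -0.01 and 0.10 in the shams. Among the other markers of the list, Cxcr2 stood at 0.73 ± 0.29, Mmp9 at 0.69 ± 0.37, Mmp8 at 0.56 ± 0.14, Csf3r at 0.48 ± 0.41 and Camp at 0.19 ± 0.13. None of these 5 was called (limma, adjusted p from 0.0535 to 0.66). Ncf4, at 0.53, 0.84 and 1.03 in the injured arrays, was not called either. Injured replicate 2 was the highest and injured replicate 1 the lowest of the 3 injured arrays for S100a9, S100a8, Cxcr2 and Csf3r. Haemoglobin mRNA of red cells moved too. Hbb stood at 3.48, 4.72 and 3.46 in injured and -0.15, -0.56 and 0.72 in sham arrays (3.88 ± 0.52), and Hba-a3 rose by 1.02 ± 0.19 but lost the call when injured replicate 2 or the sham of 6 h was omitted (adjusted p up to 0.0701). The other 5 measured red cell genes, Alas2, Slc4a1, Epb42, Hbe1 and Ahsp, ran from -0.35 to 0.44 and were not called. Injured replicate 2 and the 12 h sham were the highest of their groups in both S100a9 and Hbb. The part of blood left in the vessels or in the contusion in the neutrophil values was not tested.

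Interferon-induced genes formed the other large group. The antiviral effectors had 7 of 23 members higher and 0 lower (median 0.46), and the genes that respond to interferon gamma had 6 of 17 higher and 0 lower (median 0.55). Gbp2, a GTPase that attacks the vacuoles of microbes, stood at 4.46, 5.01 and 4.57 in injured and 0.08, 0.16 and -0.24 in sham arrays, a 25.6-fold difference (log2 4.68 ± 0.53, adjusted p = 0.000251). Irf1, the factor that turns on such genes, rose by 2.85 ± 0.34, and the immunity-related GTPases Irgm and Igtp by 1.98 ± 0.16 and 1.29 ± 0.23. Psmb9, a subunit of the immunoproteasome, rose by 2.18 ± 0.31, and the peptide transporter gene Tap1 by 0.75 ± 0.10, with probe sets at -0.17 and 1.67. Of 17 antigen presentation genes Tap1 was the 1 called.

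Among the antiviral genes Ifit3, which blocks viral translation, rose by 2.00 ± 0.31, Rsad2, which makes a chain-terminating nucleotide, by 1.91 ± 0.30, and the ubiquitin-like modifier gene Isg15 by 1.59 ± 0.20. Irf9, a part of the type I interferon signal, rose by 1.12 ± 0.20, and Usp18, which removes Isg15 from proteins, by 1.04 ± 0.22. Usp18 was called in 2 of the 6 fits (adjusted p up to 0.105). Injured replicate 2 was the highest injured array for Ifit3, Rsad2, Isg15 and Usp18. The count of 7 was 4 without injured replicate 2. The factor Irf7 (0.77 ± 0.14), the kinase gene Eif2ak2 (0.65 ± 0.13) and, outside the lists, Irgm2 (2.88 ± 0.24), Ifgga2l1 (2.37 ± 0.27), Gbp7 (2.44 ± 0.38), Dtx3l (2.51 ± 0.23), Parp9 (1.92 ± 0.23), Rtp4 (2.47 ± 0.21) and Ifitm3 (1.44 ± 0.27) also rose, all named after their values were seen. Of these 9, Irf7 and Ifitm3 lost the call when injured replicate 2 was omitted, and Eif2ak2 when injured replicate 1 or 2 or the sham of 3 h was (adjusted p up to 0.0807).

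The interferon-stimulated response element, searched on both strands as GAAA, any pair of bases and GAAA again, is shown in 4 of these genes in the same way, in the 100 bases before the start.
Gbp2, chr2:234005627-234005726, plus strand: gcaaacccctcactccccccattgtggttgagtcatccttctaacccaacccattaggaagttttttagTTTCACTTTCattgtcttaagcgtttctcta
Ifit3, chr1:241527226-241527325, plus strand: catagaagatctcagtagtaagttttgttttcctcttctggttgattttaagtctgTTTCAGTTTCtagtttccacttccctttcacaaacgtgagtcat
Irgm, chr10:33742579-33742678, minus strand: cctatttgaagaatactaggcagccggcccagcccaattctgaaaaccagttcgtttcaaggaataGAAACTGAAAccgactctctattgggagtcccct
Irf7, chr1:205800024-205800123, minus strand: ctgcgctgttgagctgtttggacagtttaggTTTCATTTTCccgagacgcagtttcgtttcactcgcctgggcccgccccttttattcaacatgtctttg

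Here too, only genes with a match were shown. In Irgm the element reads along the gene, and in the other 3 it lies on the opposite strand. Over the 300 bases the element occurred in 351 of 11734 genes (2.99%), in 21 of 230 called higher (9.13%) and in 2 of 72 called lower (2.78%). It was present in 4 of 5 called antiviral and 3 of 5 called interferon gamma genes with a promoter. The NF-kB consensus was in 0 of those 5 antiviral and 2 of those 5 interferon gamma genes.

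Among genes linked to brain vessels, some adhesion genes rose and some barrier genes fell. Which cells of the bulk cortex carried these changes was not tested. The activated endothelium list had 7 of 16 members higher and 0 lower (median 0.68), and its count stayed at 6 or 7 whichever array was left out. Socs3, given above with STAT3, is among the 7. Sele, the selectin that slows leukocytes on the vessel wall, stood at 4.57, 4.47 and 4.49 in injured and -0.16, 0.16 and -0.01 in sham arrays (22.8-fold, log2 4.51 ± 0.70, adjusted p = 0.00274). Icam1, to which they then adhere, rose by 2.74 ± 0.22, Ch25h, which makes an oxysterol, by 3.20 ± 0.56, and the uridine enzyme gene Upp1 by 1.95 ± 0.30. Vcam1, an adhesion molecule for monocytes and lymphocytes, stood at 0.89 ± 0.23 (adjusted p = 0.0602) and the platelet selectin Selp at 0.40 ± 0.10 (adjusted p = 0.0617), neither of them called. The 2 probe sets of Selp gave 0.06 and 0.73, and 1 of them was called. S1pr3, a receptor for sphingosine 1-phosphate, rose by 2.87 ± 0.34 and was chosen after its value was seen.

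Junction and transporter genes of the barrier had 7 of 22 members lower and 0 higher, against 0.682% of all genes lower, with a list median of -0.24. Cldn5, the main claudin of brain endothelial tight junctions, stood at -1.51, -1.68 and -1.35 in injured and -0.08, -0.06 and 0.15 in sham arrays (2.86-fold lower, log2 -1.52 ± 0.17, adjusted p = 0.000209). Ocln, another tight junction protein, stood between -1.07 and -1.0 in the injured arrays and between -0.19 and 0.17 in shams, and fell by 1.03 ± 0.10. Lsr, a protein of tricellular junctions, fell by 0.65 ± 0.10. Cldn5, Ocln and Lsr were called in every one of the 6 fits, whereas the 4 transporters were not. Slco1a4, which carries organic anions, stood at -2.25, -2.03 and -1.47 (-1.91 ± 0.46) and was called in 0 fits (adjusted p up to 0.155). Abcg2 and Abcb1a, the efflux pumps that keep drugs out of the brain, fell by 1.77 ± 0.39 and 1.18 ± 0.25 in 2 and 1 of the 6 fits (adjusted p up to 0.109 and 0.101). The 6 h sham of Abcg2 was at -0.97, near its highest injured array at -1.23. Slc22a8, an organic anion carrier, fell by 0.65 ± 0.15 in 1 of the 6 fits (adjusted p up to 0.129). The count of 7 was 3 without injured replicate 1, injured replicate 3 or the 3 h sham, and 4 without injured replicate 2 or the 12 h sham. The glucose carrier Slc2a1 stood at 0.00 ± 0.18 and the scaffold gene Tjp1 at 0.25 ± 0.09, neither of them called.

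Endothelial identity markers moved both ways, 3 of 16 higher and 4 lower. Slco1a4, Cldn5, the angiopoietin receptor Tek (-1.41 ± 0.19) and Ramp2, a partner of the adrenomedullin receptor (-0.91 ± 0.13), were lower. Flt1, a receptor for vascular endothelial growth factor (0.69 ± 0.15), the junction gene Esam (0.47 ± 0.11) and the factor Erg (0.41 ± 0.09) were higher, each in 1 of the 6 fits (adjusted p up to 0.177). The 3 higher genes of the list were 0 without injured replicate 1, injured replicate 2, the 3 h sham or the 6 h sham and 1 without injured replicate 3, and the 4 lower genes were 3 or 4 in every fit. The 3 probe sets of Flt1 ran from 0.05 to 1.12. Pecam1, a general marker of endothelium, stood at 0.07 ± 0.11, and Emcn and Vwf at -1.34 ± 0.42 and -0.55 ± 0.27, none of the 3 called (adjusted p = 0.829, 0.124 and 0.393). Further falls, chosen after their values were seen, were those of the junction adhesion gene F11r (-0.73 ± 0.10), the Wnt co-receptor Adgra2 (-1.02 ± 0.19), Tmem204 (-0.72 ± 0.07) and the endothelial factor Sox17 (-0.70 ± 0.08). The 3 probe sets of Sox17 ran from -2.05 to 0.11, and 1 of them was called. Among the 20 largest falls was also Cavin2, a protein of the membrane pits called caveolae, at -1.51 ± 0.21.

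Vessel growth signals had 4 of 23 members higher and 2 lower. Angpt2, which endothelium releases and which blocks Tek, stood at 1.85, 3.03 and 2.48 in injured and -0.34, -0.28 and 0.61 in sham arrays (2.46 ± 0.37, adjusted p = 0.00238). Its receptor Tek stood at -1.14, -1.87 and -1.23, so injured replicate 2 was the highest in the ligand and the lowest in the receptor. Adm, a vessel-relaxing peptide, rose by 1.73 ± 0.26, Angptl4, a lipase inhibitor, by 2.33 ± 0.46, and Apln, a peptide of growing vessels, fell by 0.60 ± 0.11. Angptl4 lost the call when injured replicate 2 or the sham of 3 h was omitted (adjusted p up to 0.0701), when 2 genes of the list were higher, and Apln when injured replicate 1 or the sham of 6 h was omitted (up to 0.0578), when 1 was lower. Vegfa stood at 0.28 ± 0.11 and was not called. Mcam, found on pericytes and endothelium, was the 1 called of 16 pericyte and smooth muscle markers (1.12 ± 0.18).

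**Figure D2:**
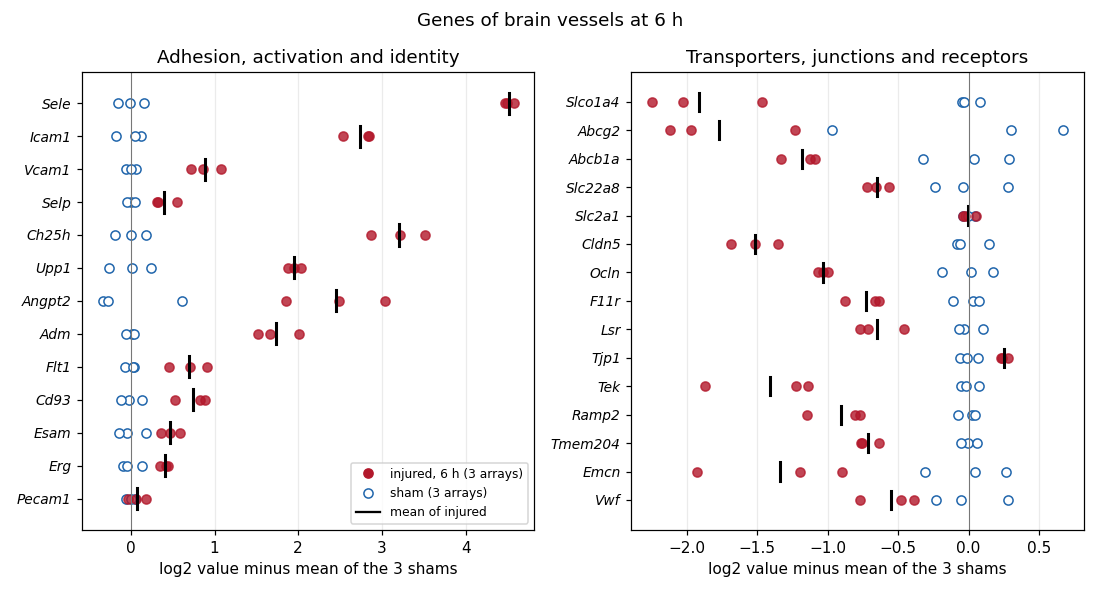
Log2 value of each array minus the mean of the 3 shams (x axis) for genes of brain vessels, grouped by role. Filled points are the 3 injured arrays, open points the 3 shams and bars the injured mean. Sele, Icam1 and Ch25h lie far to the right of the shams, Cldn5, Ocln and Tek to the left, and Pecam1 and Slc2a1 overlap the shams.

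Inhibitors of coagulation rose in the same tissue. Of 17 coagulation and plasminogen genes 3 were higher and 0 lower (median 0.34). Tfpi2, an inhibitor of plasmin and factor VIIa, rose by 3.56 ± 0.48, with injured arrays at 3.67, 3.77 and 3.25 and shams between -0.21 and 0.21. Tfpi, the inhibitor of the tissue factor pathway, rose by 1.20 ± 0.19, and Plat, the tissue plasminogen activator, by 0.80 ± 0.20. Plat stood at 0.98 and 1.10 in injured replicates 1 and 2 and at 0.33 in replicate 3, and was called in 1 of the 6 fits (adjusted p up to 0.224). Fgl2, an enzyme that cleaves prothrombin, rose by 2.66 ± 0.36 and was chosen after its value was seen. Matrix proteases had 3 of 23 members higher, all of the Adamts family, which cut proteoglycans. Adamts1 rose by 3.14 ± 0.45, Adamts9 by 1.16 ± 0.14 (probe sets at 0.06 and 2.26) and Adamts4 by 1.01 ± 0.22, the last in 0 of the 6 fits (adjusted p up to 0.121). The inhibitor Timp1 stood at 1.75 ± 0.50 and was not called (adjusted p = 0.0897). Its 3 h sham was at -1.11 and the 6 h sham at 0.76.

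Several markers of resting microglia fell. Of 14 measured, 5 were lower and 0 higher, with a list median of -0.44 (-0.52, -0.47 and -0.34 in the injured arrays). The members ran from -2.39 to 0.61. All 3 injured arrays lay below all 3 shams in 9 members and above them in 1, against 12.8% and 10.8% of all genes. P2ry12, the receptor by which microglia sense ATP, stood at -2.42, -2.86 and -1.90 in injured and 0.27, -0.09 and -0.18 in sham arrays (5.25-fold lower, log2 -2.39 ± 0.29, adjusted p = 0.00047). Gpr34, a lysophospholipid receptor, fell by 1.48 ± 0.21, and both were called in all 6 fits. Tmem119, a marker of resident microglia, stood at -1.63, -1.47 and -0.81 in injured arrays and at -0.60 in the 12 h sham (-1.30 ± 0.31), and was called in 2 of the 6 fits (adjusted p up to 0.162). The fructose carrier Slc2a5 (-0.90 ± 0.21) and the leukotriene synthase gene Ltc4s (-0.47 ± 0.10) were called in 1 and 2 of the 6 (adjusted p up to 0.136 and 0.093). Other microglial genes were not called: Cx3cr1 stood at -0.29 ± 0.18, Csf1r at -0.60 ± 0.21 and Aif1 at 0.06 ± 0.15. The count of 5 was 2 without injured replicate 1, injured replicate 2 or the 6 h sham, and 3 when the sham of 12 h was omitted. The complement genes C1qa, C1qb and C1qc, also made by microglia, stood at -1.18, -1.54 and -1.09 in injured replicate 2. In the other injured arrays they lay between -0.49 and 0.07. The highest complement gene, C3, stood at 0.50, 0.98 and 1.45 in injured arrays and between -0.19 and 0.09 in shams. Of 17 complement genes, C3 included, 0 were called (limma, 1 higher and 1 lower at an unadjusted p under 0.05).

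Markers of activated microglia and macrophages had 2 of 21 members higher, Clec7a, a receptor for fungal glucan (2.09 ± 0.49), and Cd63, a lysosomal tetraspanin (0.99 ± 0.22). They were called in 1 and 0 of the 6 fits (adjusted p up to 0.176 and 0.104), and the count of 2 was 0 without injured replicate 2, injured replicate 3 or any of the shams. The median of the list was 0.33, 0.04 and 0.81 in the 3 injured arrays, so it differed between them by more than the list medians of the shams (-0.04 to 0.06). Spp1, a cytokine of phagocytes, stood at 3.09 and 4.33 in injured replicates 1 and 3 and at -0.10 in replicate 2 (2.44 ± 1.11, adjusted p = 0.338), and Cd68 at 0.12 ± 0.45. Of 12 monocyte markers Cd14 was the 1 called, and 2 were called without injured replicate 1. Gpr84, a receptor of activated microglia and macrophages for fatty acids, rose by 1.38 ± 0.27 in 2 of the 6 fits (adjusted p up to 0.0732) and was chosen after its value was seen.

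Reactive astrocyte genes had 8 of 26 members higher and 0 lower, with a median of 0.84. The count was 6 in each of the 6 fits, and Lcn2, Cxcl10, Cd14, Hspb1 and Cd44 were called in every one. Besides Lcn2, Cxcl10, Cd14 and Serpina3n, which other cells also make, these were the small heat shock protein gene Hspb1 (2.92 ± 0.53), the hyaluronan receptor Cd44 (2.37 ± 0.41), Emp1 (1.27 ± 0.25) and Klf6 (0.74 ± 0.16). Cd44 stood at 2.06, 2.42 and 2.62 in injured and between -0.06 and 0.04 in sham arrays. Emp1 lost the call when injured replicate 1 or the sham of 12 h was omitted (adjusted p up to 0.065), and Klf6 was called in 1 of the 6 fits (up to 0.102). Gfap, the filament protein of reactive astrocytes, stood at 0.62, 0.74 and 1.15 and was not called (0.84 ± 0.24, adjusted p = 0.0825). Pdpn, a surface protein of reactive glia, rose by 1.86 ± 0.36 in 3 of the 6 fits (adjusted p up to 0.069), chosen after its value was seen. Resting astrocyte markers had 0 of 20 called (limma, 0 higher and 3 lower at an unadjusted p under 0.05), with Gjb6, a gap junction subunit, lowest at -0.71 ± 0.19 and Glul highest at 0.14 ± 0.11. The gene of angiotensinogen, Agt, which astrocytes make, fell by 0.60 ± 0.13 in 1 of the 6 fits (adjusted p up to 0.124), also chosen after its value was seen.

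Fibroblast and meningeal genes were low. Of 22 measured, 4 fell and 0 rose, with a list median of -0.55. Col3a1 and Col1a2, fibrillar collagens, fell by 2.14 ± 0.48 and 1.93 ± 0.37, Col1a1 by 0.91 ± 0.21 and Ptgds, a prostaglandin synthase of the meninges, by 1.09 ± 0.26. Col3a1 stood at -2.65, -2.45 and -1.33 in injured arrays and at -0.92, 0.27 and 0.65 in the 3, 6 and 12 h shams. Injured replicate 3 was the least low of the injured arrays for Col3a1, Col1a2 and Ptgds, and the 3 h sham the lowest sham for all 4 genes. The list median was -0.58, -0.64 and -0.23 in the injured arrays and -0.24, -0.02 and 0.15 in the shams. The count of 4 was 0 without injured replicate 1, injured replicate 2 or the 12 h sham, 1 when the sham of 6 h was omitted and 4 in the remaining fits. Col1a2 was called in 3, Col3a1 in 2 and the other 2 genes in 1 of the 6 (adjusted p up to 0.179). Fst, which binds activin (-0.91 ± 0.18), and Omd, a small proteoglycan (-0.96 ± 0.20), also fell, in 3 and 2 of the 6 fits (adjusted p up to 0.0843 and 0.103), and were chosen after their values were seen. How much meninges was cut out with each piece of cortex was not tested.

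Of the TGF-beta and BMP list, Id1, an inhibitor of differentiation factors, was the 1 called of 22 (-1.05 ± 0.22), in 1 of the 6 fits (adjusted p up to 0.0956). The matrix growth signal Ccn2 fell by 1.15 ± 0.27 in 0 of the 6 fits (adjusted p up to 0.16). Tspan8, a tetraspanin, was lower by 1.92 ± 0.31, the membrane protein Prom1 by 1.75 ± 0.29 and the Golgi protein Golm1 by 1.45 ± 0.15. Prom1 stood at -1.71, -1.76 and -1.79 in injured and 0.36, -0.12 and -0.24 in sham arrays. Prom1 had been listed with the choroid plexus and ependyma, where it was the 1 called of 14. The other 13 genes of that list, the choroid plexus transcript Ttr (0.13 ± 1.19) among them, lay between -0.18 and 0.13.

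The lists of stress responses held from 0 to 4 called genes each. Of 20 heat shock genes 2 rose, Hspb1 and the inducible chaperone gene Hspa1a (1.68 ± 0.29), in each of the 6 fits. Of 24 genes of the unfolded protein and integrated stress response 0 were called (limma, 2 higher and 2 lower at an unadjusted p under 0.05), with Ppp1r15a, a phosphatase subunit, highest at 1.03 ± 0.26 (adjusted p = 0.0535). Oxidative stress, haem and metal genes had 4 of 22 higher in each fit: mitochondrial Sod2 (1.09 ± 0.10), the antioxidant factor Nfe2l2 (0.96 ± 0.16), thioredoxin reductase Txnrd1 (0.86 ± 0.15) and the zinc carrier Slc39a14 (0.46 ± 0.09). Sod2 stood at 1.16, 1.11 and 1.0 in injured arrays and between -0.03 and 0.03 in shams. Hmox1, which breaks down haem, stood at 2.11 ± 0.63 and the metallothionein gene Mt2A at 1.31 ± 0.33, neither of them called (adjusted p = 0.103 and 0.0522). Hypoxia and glycolysis genes had 3 of 23 higher, Adm and the small rises of Pfkfb3 (0.61 ± 0.15) and the lactate carrier Slc16a3 (0.45 ± 0.11). The latter pair was called in 0 and 1 of the 6 fits (adjusted p up to 0.166 and 0.217), and the count of 3 was 1 in every fit except that without the 3 h sham, which gave 2. The 3 probe sets of Pfkfb3 ran from 0.05 to 1.49.

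The p53 and apoptosis list had 8 of 23 members higher and 0 lower (median 0.12). Genes that protect from cell death and genes that promote it were both among them. Bcl2a1, an NF-kB-induced survival protein, rose by 3.42 ± 0.33, with injured arrays at 3.11, 3.62 and 3.51, and the survival protein gene Mcl1 by 1.01 ± 0.16. The inflammatory caspase gene Casp4 rose by 1.52 ± 0.18, and Bid, a death agonist, by 0.79 ± 0.14. The growth arrest genes Gadd45g, Gadd45b and Gadd45a rose by 2.69 ± 0.44, 2.17 ± 0.46 and 1.46 ± 0.35, in 6, 1 and 0 of the 6 fits (adjusted p of the latter pair up to 0.0926 and 0.139). Mdm2, the p53 ligase, rose by 0.45 ± 0.11 in 0 of the 6 fits (adjusted p up to 0.166). The count of 8 was 5 without injured replicate 1, injured replicate 2 or any of the shams.

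In lipid pathways, 4 of 19 cholesterol synthesis genes rose and 0 fell (median 0.29). The isomerase gene Idi1 rose by 0.83 ± 0.12, Mvd by 0.59 ± 0.13, Acat2 by 0.49 ± 0.09 and Fdps by 0.38 ± 0.08, enzymes of the early pathway. Idi1 was called in every fit, Acat2 in 5 of the 6, Mvd in 2 and Fdps in 1 (adjusted p up to 0.0624, 0.127 and 0.0863). The count of 4 was 1 without injured replicate 2, 2 without injured replicate 3, the 6 h sham or the 12 h sham, and 5 when the sham of 3 h was omitted. Of prostaglandin and leukotriene genes 1 of 19 rose and 2 fell. Ptges, the inducible prostaglandin E synthase, rose by 2.94 ± 0.38, with injured arrays at 2.96, 3.17 and 2.68, while Ptgs2, the cyclooxygenase that feeds it, stood at 1.09 ± 0.51 (adjusted p = 0.347), with its shams spread from -0.73 to 0.51. The falls were those of Ptgds and Ltc4s, of which 0 were called without injured replicate 1, injured replicate 2, the 6 h sham or the 12 h sham and 1 when the sham of 3 h was omitted. Degs2, which makes phytoceramide, fell by 1.19 ± 0.12. Gch1, which makes the cofactor of nitric oxide synthases, rose by 0.94 ± 0.14 (probe sets at 0.16 and 1.71) and was chosen after its value was seen. Of 15 glucocorticoid-responsive genes the transglutaminase gene Tgm2 was the 1 called (1.42 ± 0.27), and it lost the call when injured replicate 2 or the sham of 3 h was omitted (adjusted p up to 0.0565). Of 20 lipid uptake and efflux genes Ch25h was the 1 called. Of 24 growth factors the macrophage factor gene Csf1 was the 1 called (0.38 ± 0.09), in 2 of the 6 fits (adjusted p up to 0.139), and 2 were called without injured replicate 3. The 4 probe sets of Csf1 ran from 0.06 to 0.71.

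Neuronal genes showed small differences. Of 16 general neuronal markers 0 were called (limma, 0 higher and 3 lower at an unadjusted p under 0.05), with values from -0.25 (Chga) to 0.05 (Rbfox3). Of 15 excitatory markers Bcl11b, a factor of deep-layer neurons, fell by 0.52 ± 0.10, and was lost without injured replicate 2 (adjusted p = 0.0624). Interneuron and neuropeptide genes had 0 of 17 called (limma, 0 higher and 7 lower at an unadjusted p under 0.05), and all 17 lay below the sham mean, from -0.53 (Pdyn) to -0.02 (Cck). Their median of -0.25 was -0.10, -0.35 and -0.15 in the 3 injured arrays. Called genes were 0 of 24 sodium and calcium channels, 0 of 25 glutamate and GABA receptors, 0 of 27 synaptic vesicle genes and 1 of 34 potassium channels. At an unadjusted p under 0.05, limma gave 0, 4, 5 and 4 genes in these lists. The potassium channel was Kcnc2, of fast-spiking neurons, with a fall of 0.35 ± 0.08 in 1 of the 6 fits (adjusted p up to 0.177). Outside the lists, the glutamate receptor subunit Grin3a fell by 0.56 ± 0.10 and the tubulins Tuba4a and Tubb4b by 0.51 ± 0.09 and 0.41 ± 0.06. The calcitonin-family gene Calcb rose by 1.19 ± 0.25 in 2 fits and the neuropeptide gene Gal by 1.99 ± 0.46 in 0 (adjusted p up to 0.103 and 0.138). These 5 genes were chosen after their values were seen.

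Several other groups had no called gene with limma. They were 16 oligodendrocyte markers (6 higher and 0 lower at an unadjusted p under 0.05, median 0.26), 11 of oligodendrocyte precursors (0 and 1), 26 respiratory chain genes (0 and 2), 28 cell cycle genes (2 and 1), 26 proteasome genes (1 and 0) and 16 clock genes (0 and 1). Lymphoid and mast cell markers were flat. The 19 T and NK cell markers lay between -0.10 and 0.11, the 6 B cell markers between -0.15 and 0.12 and the 9 mast cell markers between -0.14 and 0.13, with 0 called and 0 at an unadjusted p under 0.05.

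**Figure D3:**
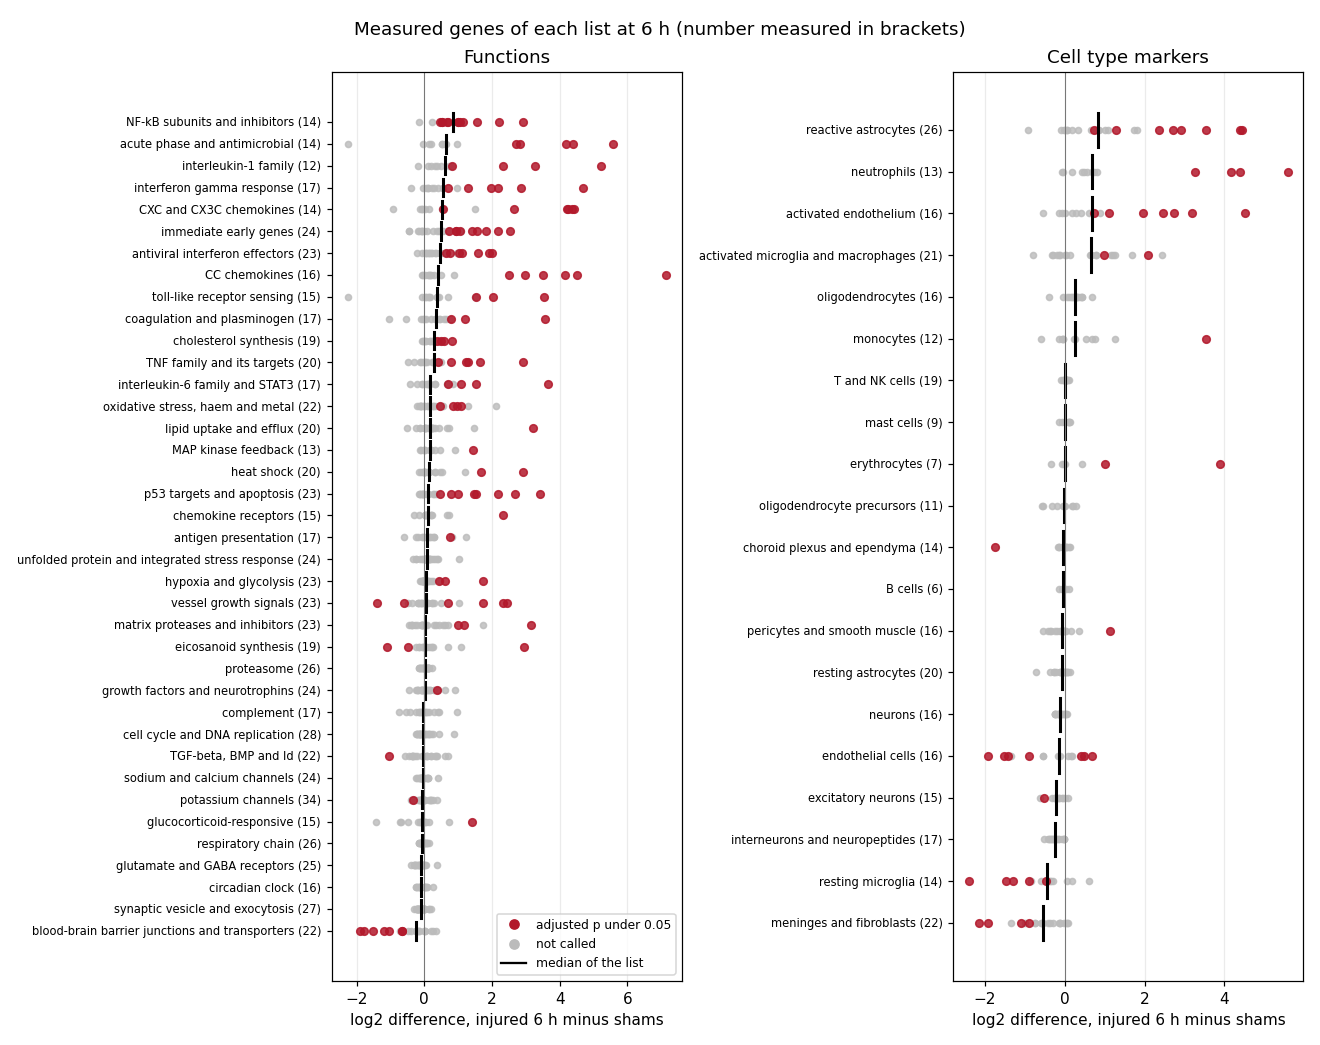
Log2 difference between the 3 injured arrays at 6 h and the 3 shams (x axis) for each measured gene of 38 lists of functions (left) and 20 lists of cell type markers (right), with the number measured in brackets. Red points are called genes, grey points genes not called, and bars list medians. NF-kB subunits and inhibitors have the highest median among functions (0.85) and barrier genes the lowest (-0.24), and meningeal genes the lowest among cell types (-0.55).

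The 58 lists held 1004 of the measured genes and 139 of the 379 called genes, 116 higher and 23 lower, so 166 higher and 74 lower genes stood in no list. Examples, chosen after their values were seen, are Rgs16, a brake on G protein signalling (2.19 ± 0.26), the kinase anchor Akap12 (1.17 ± 0.14) and the proteoglycan Sdc4 (0.93 ± 0.20, in 0 of the 6 fits, adjusted p up to 0.116). Among falls in no list were the phospholipid carrier Pltp (-0.69 ± 0.16, in 0 fits), the retinol carrier Rbp4 (-0.74 ± 0.15, in 2) and the mitochondrial enzyme Idh2 (-0.49 ± 0.12, in 1), with adjusted p up to 0.192.

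The 6 h response was set against the times before and after by comparing injured arrays directly. The shams cancel from these differences, but they still enter the spread behind the SE and p-values. Against the sham mean, the choroid plexus transcript Ttr stood at 1.43, 5.24 and 6.06 in the 3 h injured arrays. It stood at -0.57, 1.15 and -0.19 at 6 h and at 2.05, 0.19 and 5.57 at 12 h. The median of the choroid plexus and ependyma list was 0.16, -0.03 and 0.02 at these times. Whether the tissue cut out differed between times was not tested. Between 3 and 6 h, 113 genes were higher and 57 lower at 6 h (1.20% of all genes either way). Of the 282 genes raised at 6 h, 67 were also higher at 6 h than at 3 h and 2 were lower. Of the 97 lowered at 6 h, 21 were also lower at 6 h than at 3 h and 0 were higher. NF-kB subunits and inhibitors had 0 of 14 genes called between the times and immediate early genes 0 of 24, while their list medians against the shams were 0.47 and 0.84 at 3 h and 0.85 and 0.49 at 6 h. In other lists, 4 of 14 acute phase genes, 4 of 26 reactive astrocyte genes, 5 of 23 antiviral genes and 4 of 13 neutrophil genes were higher at 6 h. In the neutrophil list Olr1 was lower at 6 h.

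Against the same 3 shams, S100a9 averaged 0.35 at 3 h, 5.58 at 6 h and 5.67 at 12 h, and Lcn2 1.06, 4.38 and 5.69. From 3 to 6 h S100a9 rose by 5.24 ± 0.73 (adjusted p = 0.00396) and Lcn2 by 3.32 ± 0.45. The antiviral genes Isg15 and Rsad2 averaged 0.16 and 0.30 at 3 h, 1.59 and 1.91 at 6 h, and 2.74 and 3.39 at 12 h, and both differed between 3 and 6 h (by 1.43 ± 0.20 and 1.61 ± 0.30). Angpt2 rose by 2.07 ± 0.37 between 3 and 6 h, and Tek fell by 1.24 ± 0.19. P2ry12 averaged -0.59, -2.39 and -2.62, with a fall of 1.80 ± 0.29 between 3 and 6 h. The barrier genes Cldn5, F11r and Lsr fell by 1.07 ± 0.17, 0.44 ± 0.10 and 0.98 ± 0.10 over that step. Cldn5 averaged -0.45 at 3 h and -0.85 at 12 h, so its lowest mean of the 3 times was at 6 h, where the difference from 12 h was not called (0.67 ± 0.17, adjusted p = 0.281).

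The 2 genes raised at 6 h but lower than at 3 h were Il1a and Ccl4. Il1a averaged 5.10 at 3 h, 2.34 at 6 h and 0.66 at 12 h, and fell by 2.76 ± 0.30 from 3 to 6 h (adjusted p = 0.00081). Ccl4 averaged 4.71, 3.52 and 1.26, with a fall of 1.19 ± 0.27 from 3 to 6 h (adjusted p = 0.0481). Of genes not called at 6 h, Tnf fell by 0.89 ± 0.15 and the scavenger receptor Olr1 by 1.52 ± 0.21 between 3 and 6 h. Between 6 and 12 h, 2 genes were called (0.0141%), Il6 (a fall of 2.88 ± 0.29, adjusted p = 0.00157) and Ccl4 (2.26 ± 0.27, adjusted p = 0.00539). With limma 0 genes were higher at 12 h, while 732 higher and 517 lower had an unadjusted p under 0.05. The counts of these steps depended on single arrays. The 170 genes between 3 and 6 h were 42 and 51 when replicate 1 or 2 of 3 h was omitted, and 87, 39 and 76 when it was replicate 1, 2 or 3 of 6 h. The 2 genes between 6 and 12 h were 1 and 5 when replicate 2 or 3 of 6 h was omitted, and 11 and 45 when it was replicate 2 or 3 of 12 h.

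**Figure D4:**
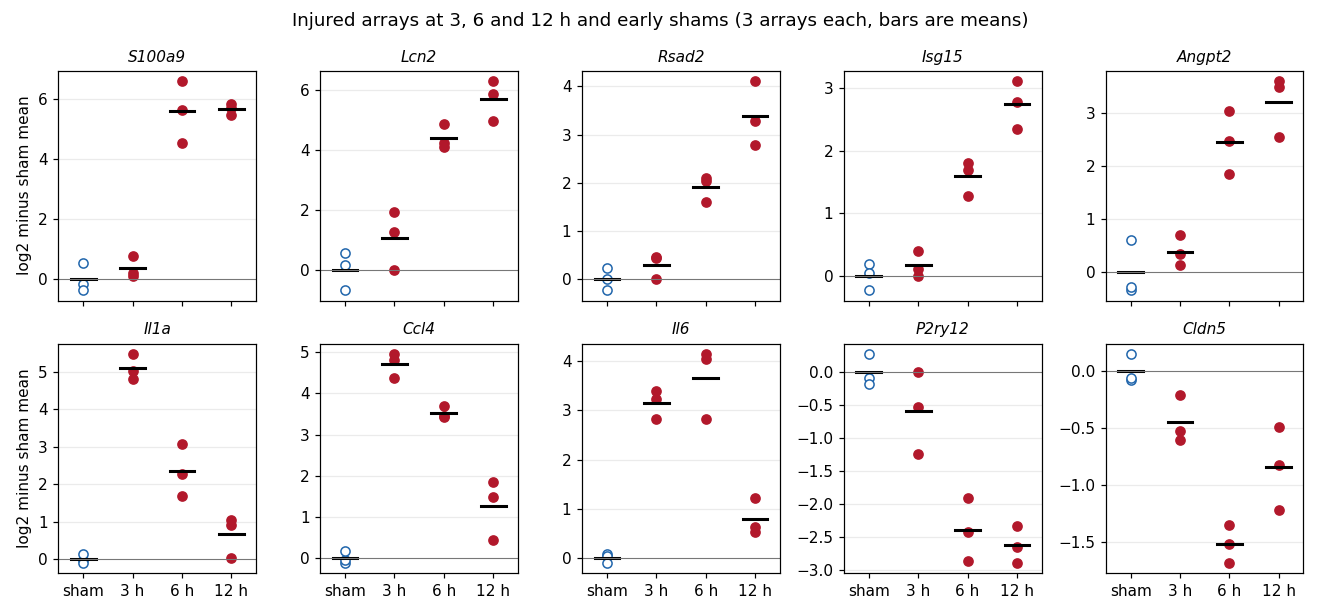
Log2 value minus the mean of the 3 early shams (y axis, a separate scale in each panel) for 10 genes in shams (open points) and in injured cortex at 3, 6 and 12 h (filled points), 3 arrays each, with bars at the means. S100a9 and P2ry12 lie apart from the shams at 6 and 12 h, Il1a is highest at 3 h, and Il6 drops between 6 and 12 h.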

How the data were processed

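Polyadenylated RNA of rat cortex was measured on 16 Affymetrix arrays. The authors deposited RMA values, per the submitters' processing notes, which are taken here as log2. The base is not stated in the sources used here. In the deposited table the median of each of the 31099 probe sets over the 16 arrays was 0, and values ran from -5.64 to 5.98. Array number limits the precision.

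Probe sets were named through the platform annotation: 20832 had 1 gene symbol, 436 with several symbols were left out, and probe sets were averaged per symbol into 14218 genes. A linear model over 6 groups and all 16 arrays (limma 3.58.1, R 4.3.3, 10 residual degrees of freedom) was fitted, with Benjamini-Hochberg adjustment over all genes and calls at an adjusted p under 0.05. It was tested on simulated data. Fits with the widest probe set, each probe set alone, quantile normalization, median centring, other sham sets, 2 groups, a replicate block and each array left out were the alternatives. Promoters were searched in RefSeq sequences (GRCr8) 250 bases before to 50 after each gene's start. The members, gene lists and naming rule were chosen with earlier results of these data known, and 102 further genes after their values were seen. No 2 arrays were duplicates. The nearest pair in the series differed by a root mean square of 0.195 over probe sets.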

Additional observations from a re-analysis of the deposited data

Results flagged for a closer look

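The results below differed between times after injury by a direct test between injured arrays (limma, adjusted p under 0.05, 3 arrays at each time). Each value is the log2 difference of 6 h minus 3 h unless stated otherwise.

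Genes of neutrophils, acute phase and chemokine signals that were higher at 6 h than at 3 h were S100a9 (5.24), S100a8 (4.15), Il1r2 (3.35), Lcn2 (3.32), Ccl6 (3.13) and Slpi (3.04). Lower at 6 h than at 3 h were the early cytokine and chemokine genes Il1a (-2.76), Ccl4 (-1.19) and Tnf (-0.89) and the scavenger receptor gene Olr1 (-1.52). From 6 to 12 h, Il6 changed by -2.88 and Ccl4 by -2.26.

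Interferon-linked genes were higher at 6 h than at 3 h, among them Ifgga2l1 (2.50), Rtp4 (2.16), Gbp7 (2.13), Irgm2 (2.08), Dtx3l (1.77), Psmb9 (1.64), Rsad2 (1.61), Irgm (1.54), Parp9 (1.50), Isg15 (1.43), Irf9 (1.37), Igtp (1.19), Usp18 (1.19), Eif2ak2 (0.82) and Tap1 (0.56). Of genes linked to vessels, glia and signalling, the higher ones were Timp1 (2.49), S1pr3 (2.29), Fgl2 (2.26), Angpt2 (2.07), Cd44 (2.06), Ptges (1.88), Mt2A (1.46), Upp1 (1.43), Adm (1.36) and Gfap (1.24). Also higher were Sbno2 (1.22), Casp4 (1.20), Stat3 (1.09), Tnfrsf9 (1.0), Akap12 (0.87), Tfpi (0.85), Il18bp (0.84), Sod2 (0.79), Bid (0.72) and Slc39a14 (0.52). Timp1, Mt2A and Gfap differed between 3 and 6 h although their differences from the shams at 6 h were not called. In the 3 h injured arrays Timp1 stood at -1.66, -0.41 and -0.14 and Gfap at -0.61, -0.54 and -0.06 against the sham mean. The 3 h sham was below the 6 h sham for Timp1 (-1.11 against 0.76) and Mt2A (-0.64 against 0.19), but above it for Gfap (0.28 against -0.15). With 1 sham at each time, a step shared with the shams was not tested.

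Genes of microglia, vessels and matrix that were lower at 6 h than at 3 h were P2ry12 (-1.80), Prom1 (-1.75), Tek (-1.24), Golm1 (-1.21), Cldn5 (-1.07), Gpr34 (-0.99), Lsr (-0.98), Pltp (-0.89), Degs2 (-0.76), Acvrl1 (-0.70), Sparc (-0.67), Apln (-0.57), Sox17 (-0.54) and F11r (-0.44). Of neuronal genes, the glutamate receptor subunits Grik1 (-0.78) and Grin3a (-0.59) and the factor Bcl11b (-0.47) were lower.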

How the results depend on the processing

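The 379 genes called at 6 h became 850 (575 higher, 275 lower) with quantile normalization, 796 with only the 2 groups in the fit, 75 with the 6 h sham alone, 160 with a 2-fold minimum and 177 to 274 without 1 array (242, 202 and 229 without the sham of 3, 6 or 12 h). With the widest probe set, median centring, all 4 shams and each probe set alone they were 419, 389, 463 and 464. All 189 called genes named kept their sign under the 6 settings compared, and 189 stayed called with quantile normalization but 57 with the 6 h sham alone. The 170 genes between 3 and 6 h became 686 with quantile normalization, 51 with a 2-fold minimum and 39 to 157 without 1 array. The 2 genes between 6 and 12 h became 9 with quantile normalization and 1 to 45 without 1 array.

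With the replicate number as a block, and only the injured pair of times in the fit, 405 genes differed between 3 and 6 h and 0 between 6 and 12 h. The same fits without the block, added after seeing the data, gave 551 and 0. Same-numbered arrays did not deviate together (correlations 0.042, -0.062 and 0.059 between 3 and 6 h, and -0.060, -0.018 and -0.188 between 6 and 12 h), and not every array correlated best with its own number, so the numbers do not pair them. No paired analysis was possible because the 3 shams carry the same replicate number, for 6 h against sham. The cause of these moves was not tested. A fit without 1 array has fewer arrays, and a lone sham is assumed to vary like the other groups. Signal over background is not in the deposited values, so dim genes could not be set apart.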
